A study of Ginkgo biloba with 2 samples.

Results

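The genes described here are the predicted miRNA targets of Ginkgo biloba leaves whose protein match is a pentatricopeptide repeat (PPR) protein or carries the word mitochondrial. They were taken from the deposited target table, in which each gene stands with its best protein match and the miRNA names predicted to bind it. A gene was included when the description of its match contained pentatricopeptide, or mitochondrial without chloroplast, and 165 of the 2713 target genes were. Of these, 115 matched PPR proteins and 50 matched other mitochondrial proteins. The 10 genes that matched a non-PPR protein of both organelles were left out. The study compared 2 small RNA libraries of Ginkgo biloba, a gymnosperm tree, of which 1 came from the yellow leaves of a mutant with gold-coloured foliage and the other from normal green leaves. Both leaf kinds came from an adult tree, and the mutant leaves are described both as yellow and as striped yellow and green, so the yellow library may hold green tissue. Both samples carry the tissue label leaf, although the extraction text speaks of cambium. Summed over all miRNA names, the yellow library held 2793966 reads and the green library 2084893.

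Plant miRNAs guide the cleavage or repression of mRNAs that pair with them closely. PPR proteins are a large plant family of RNA-binding proteins, most of them encoded in the nucleus and imported into mitochondria or chloroplasts, where they edit, splice, process or stabilise single organelle transcripts. Many, but not all, members whose tail carries the so-called DYW domain act in C-to-U RNA editing, and losing a chloroplast PPR protein often gives pale or yellow leaves in flowering plants. In flowering plants several miRNA families cut PPR transcripts and start the production of secondary small RNAs from them. Whether any of the pairs below leads to cleavage in ginkgo was not measured, since the table holds predictions and the counts are of miRNAs and not of the target mRNAs. Sequences of the miRNAs and genes were not used here.

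All values are read counts of miRNA names, or counts scaled to the column total (CPM). Each leaf type has a single library, so nothing was tested between leaf types. Each ratio of yellow over green CPM stands with its exact 95% interval for counting error, which is itself too narrow where reads are copies of 1 molecule. To be called higher or lower, a name needed 20 or more reads over both libraries, a ratio at least 2-fold from 1 and an interval without 1. In whole leaves, fewer cells with a miRNA and less of it per cell cannot be told apart. The median log2 ratio over all names with at least 20 reads was -0.43, so ratios near that value stand at the centre of these libraries. Names of 1 miRNA family can count the same reads and are not independent.

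A total of 93 miRNA names were listed for the 165 genes, 41 of them numbered names that carry only the authors' number (novel_164 and the like) and 52 of them miRBase names from other plants. Of the genes, 109 were listed for numbered names only, 53 for miRBase names only and 3 for both kinds. Most genes had a single name: 148 had 1 and 17 had several, with 5 names at most. Only 7 genes were listed for names of different families. The genes shared few protein matches, since the 115 PPR genes had 49 different matches and the other 50 genes had 30. All 115 PPR matches were proteins of Arabidopsis thaliana, the thale cress.

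The PPR genes were concentrated on a few numbered miRNAs with few reads. Together novel_164, novel_244 and novel_332 were listed for 41 of the 115 PPR genes, or 35.7%, and only Gb_14458 was shared between them. The other names held fewer, and 42 of the 61 names with a PPR target had exactly 1. PPR genes made up 5.66% of the 2031 target genes with a protein match. Among the matched targets of novel_164 they were 19 of 24, or 79.2%. Among those of novel_332 they were 11 of 29, or 37.9%, among those of novel_259 5 of 20, or 25.0%, and among those of novel_244 12 of 78, or 15.4%. The numbered names novel_47, with 4 of 5, and novel_297, with 3 of 4, also had mostly PPR targets.

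**Figure D1:**
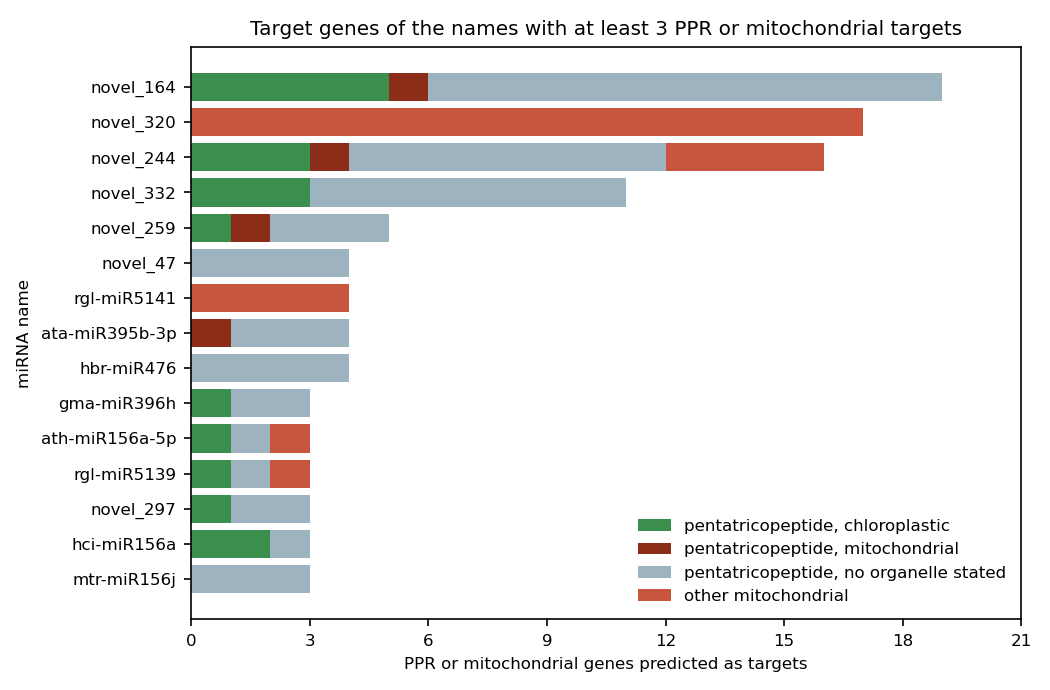
Bars show, for each miRNA name with at least 3 of the 165 genes as predicted targets, how many of them matched PPR proteins by the organelle stated in the match, or other mitochondrial proteins. The 19 genes of novel_164 are all PPR genes, while the 17 genes of novel_320 are all in the other mitochondrial group.

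The reads of these names were low. novel_164 had 8 reads in the yellow and 37 in the green library (2.86 and 17.7 CPM), and was 6.20-fold lower in yellow leaves (interval 2.84 to 15.4), a call that it kept under all 4 scalings tried. novel_332 had 5 reads in the yellow and 11 in the green library, a ratio of 0.339 (0.0924 to 1.06). novel_244 had 9 and 8 reads, a ratio of 0.839 (0.287 to 2.50), and novel_259 had 5 and 9, a ratio of 0.415 (0.109 to 1.38). These last 3 names stood under the minimum of 20 reads, and a 2-fold difference in them was not detectable at this depth. The 4 names together had 27 reads in the yellow and 65 in the green library, so the miRNAs with the most predicted PPR targets had few reads.

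PPR-targeting names with many reads existed but had few such targets. novel_47, listed for 4 PPR genes, had 1652 reads in the yellow and 997 in the green library (591 and 478 CPM), a ratio of 1.24 (1.14 to 1.34). gma-miR396h, of the family known for restraining growth-regulating factors, had 22746 reads in the yellow and 9167 in the green library, a ratio of 1.85 (1.81 to 1.90), and was listed for 3 PPR genes. Its ratio passed the 2-fold limit under the 3 other scalings. cpa-miR166e, of the family known for the HD-ZIP III leaf polarity genes, had 79529 reads in the yellow and 88263 in the green library, a ratio of 0.672 (0.666 to 0.679), and was listed for the 2 PPR genes Gb_13599 and Gb_37541. Of the 9 names with at least 4 of the 165 genes, 6 had fewer than 20 reads, beside 39 of the 93 names and 161 of all 467.

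**Figure D2:**
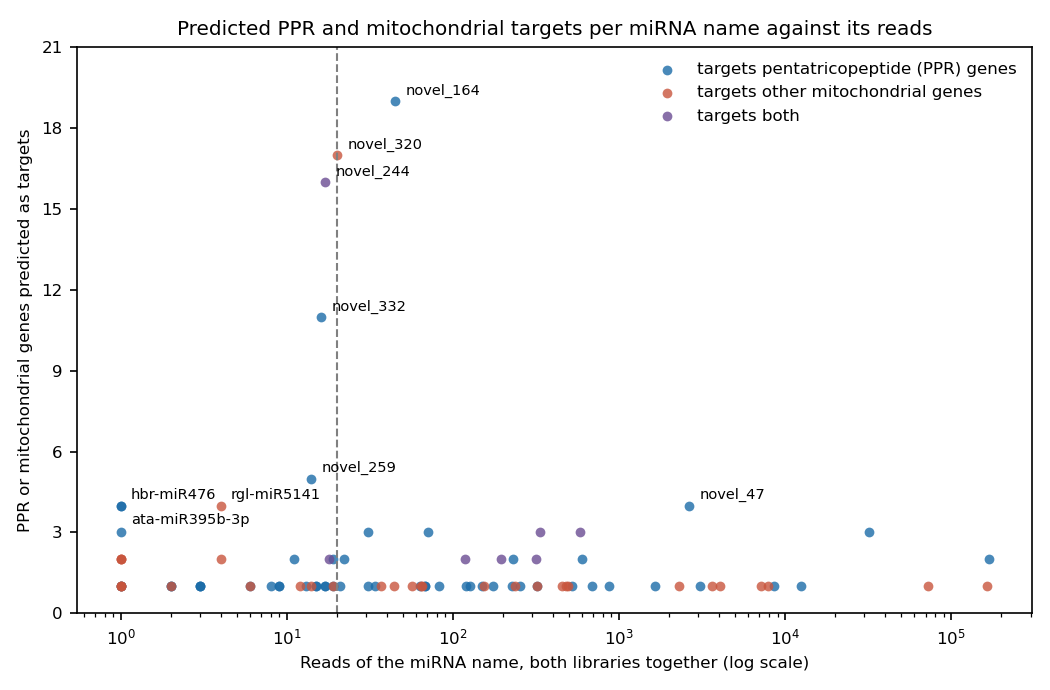
Each point is 1 of the 93 miRNA names, with its reads in both libraries together on a log scale and the number of the 165 genes predicted as its targets, and the dashed line marks 20 reads. The names with most targets lie near or left of the line, while novel_47 has 4 targets and lies far to the right of it.

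Among the 93 names, 54 had at least 20 reads, and 17 of these were lower and 9 higher in yellow leaves, or 31.5% and 16.7%. Over all 306 names with at least 20 reads the same rule called 24.8% lower and 12.1% higher, and over the 268 of them with any predicted target it called 25.4% lower and 8.96% higher. The median log2 ratio of the 54 names was -0.29, against -0.43 for all names. With edgeR TMM factors these medians were 0.18 and 0.03, and with median-of-ratios factors 0.14 and -0.01. Each scaling shifted both medians alike, so their sign depended on it. The split depended on the scaling. With edgeR TMM factors 10 names were lower and 14 higher, beside 16.3% and 20.9% of all names, and with median-of-ratios factors 11 were lower and 14 higher, beside 17.6% and 19.6%. With the total taken without the most abundant name 14 were lower and 11 higher, beside 20.9% and 16.3%. The median log2 ratio was then -0.02, beside -0.17 for all names. Of the 17 lower names 10 kept the call under all 4 scalings, as did all 9 higher names, which the other scalings could only move further up.

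Counted by gene, 35 of the 165 genes (21.2%) had at least 1 lower name and 26 (15.8%) at least 1 higher name, while the background over all 2713 target genes was 16.8% and 10.2%. The remaining genes were split between 31 whose names were neither and 74 whose names all had fewer than 20 reads. Single names set these counts. novel_164 alone gave 19 of the 35 genes with a lower name, and without it 16 were left. novel_320 gave 17 of the 26 genes with a higher name, and without its genes 9 were left. Among the 115 PPR genes 28 had a lower and 7 a higher name, and among the 50 other mitochondrial genes 7 had a lower and 19 a higher name. Counted by name, the other mitochondrial group leaned the other way. Of its 24 names with at least 20 reads, 11 were lower and 3 higher, with a median log2 ratio of -0.81. Of the 35 such names of PPR genes, 10 were lower and 7 higher, with a median of -0.27. These sets shared 5 names. Under all 4 scalings 6 lower and 3 higher calls held in the other mitochondrial set, and 6 and 7 in the PPR set. For comparison, of the 108 other genes with a chloroplast protein match, 22 had a lower and 5 a higher name. No test of these differences was made, since genes listed for 1 name are not independent.

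**Figure D3:**
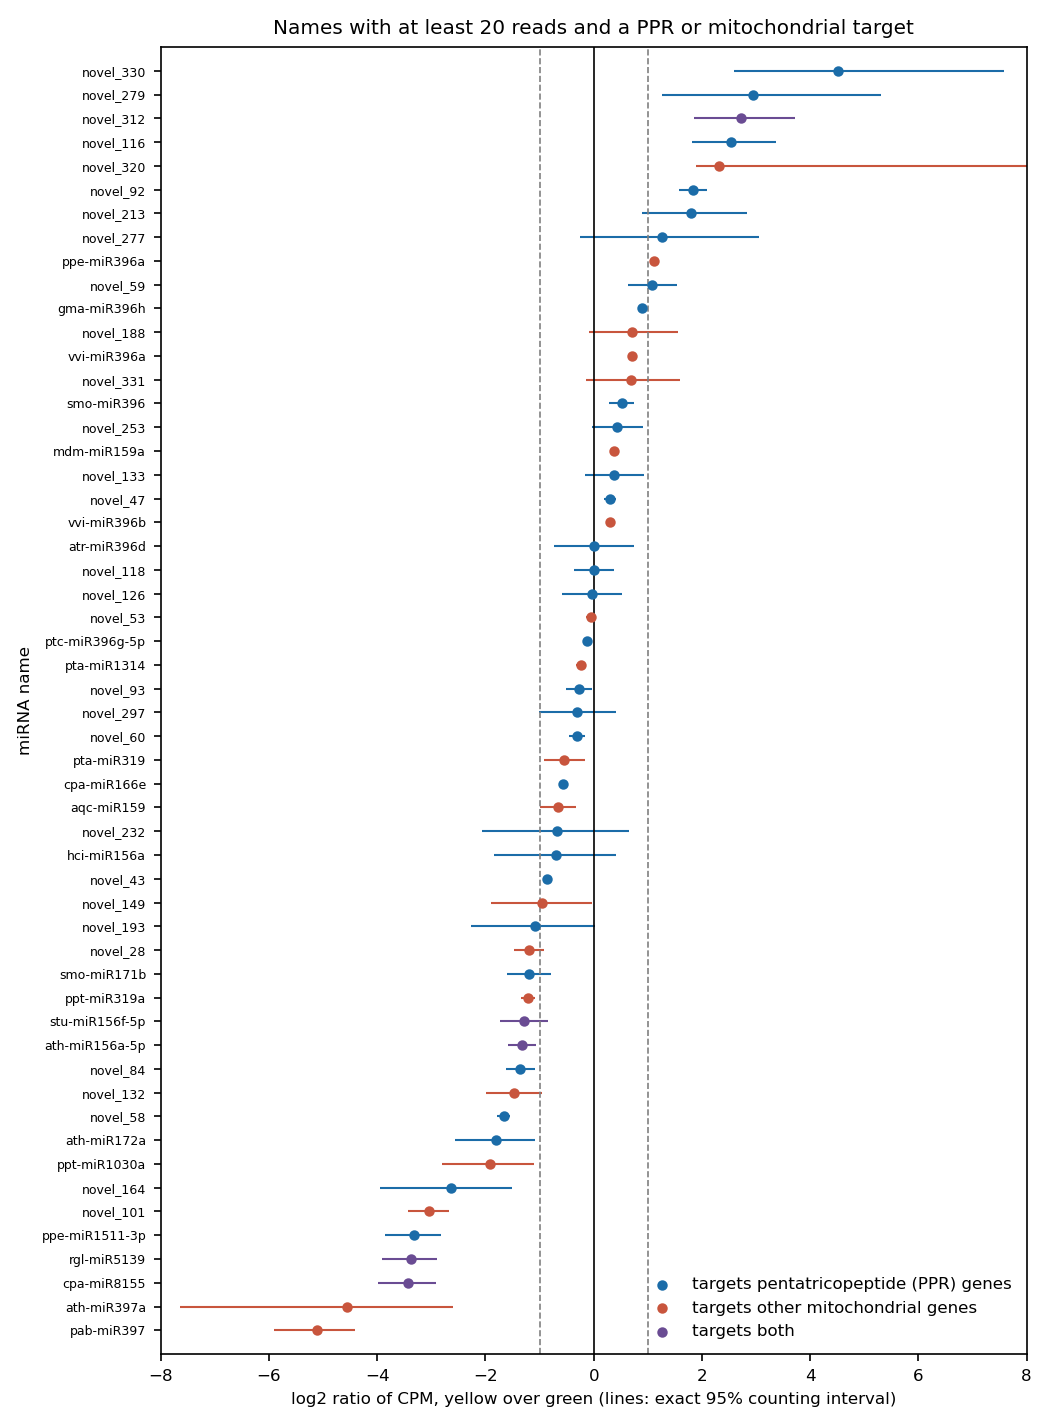
Points show the log2 ratio of CPM, yellow over green, of the 54 names with at least 20 reads and a predicted PPR or mitochondrial target, and lines show the exact 95% counting interval (dashed lines mark the 2-fold limits). novel_320 had no green reads and is drawn at its ratio against a floor of 3 counts, with an interval open to the right.

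By the organelle stated in the match, 24 PPR genes were chloroplastic, 10 mitochondrial and 81 had no organelle stated. Over all 2713 target genes 16.8% had a lower and 10.2% a higher name. Of the chloroplastic ones 7 (29.2%) had a lower name, 4 (16.7%) a higher name, 5 a name that was neither, and 8 had names under 20 reads only. Of the mitochondrial ones 2 had a lower name, and the other 8 had names under 20 reads only. Of those with no stated organelle 19 (23.5%) had a lower and 3 (3.70%) a higher name, 21 were neither and 38 had names under 20 reads only. The single name novel_164 gave 5 of the chloroplastic, 1 of the mitochondrial and 13 of the unlabelled genes with a lower name. An absent organelle label says only that the match carried none. A stated organelle or a named function is likewise that of the matched protein, and neither was shown for the ginkgo gene.

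The chloroplastic PPR genes included matches of known RNA editing factors. The most frequent match was At1g11290, known as CRR22, which edits chloroplast transcripts in Arabidopsis, with 15 genes spread over 12 names. Of these 15, Gb_00941, Gb_04990 and Gb_08070 were listed for the lower novel_164. Gb_38129, with the same match, was listed for rgl-miR5139, cpa-miR8155 and ppe-miR1511-3p. rgl-miR5139 had 38 reads in the yellow and 296 in the green library and was 10.4-fold lower (7.43 to 15.0). cpa-miR8155 had 35 and 281 reads and was 10.8-fold lower (7.55 to 15.8), and ppe-miR1511-3p had 38 and 283 reads and was 9.98-fold lower (7.10 to 14.4). The counts of these 3 names differ by few reads, so they may not be separate measurements, and each was called lower under all 4 scalings.

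In the opposite direction, 2 genes with the At1g11290 match were listed for higher names. Gb_31374 was listed for novel_279, which had 31 reads in the yellow and 3 in the green library, a ratio of 7.71 (2.41 to 39.4). Gb_38067 was listed for novel_213, with 56 and 12 reads, a ratio of 3.48 (1.85 to 7.14). Gb_26816, again with this match, was listed for the abundant gma-miR396h, which was called neither. Genes with 1 and the same match were thus paired with lower, higher and uncalled miRNAs, and 7 of the 15 had names under 20 reads only.

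The other chloroplastic PPR genes with called names had matches known for editing, splicing or processing of plastid transcripts. Gb_22288, matching DOT4, an editing factor of the plastid RNA polymerase transcript rpoC1 in Arabidopsis, was listed for novel_116, with 133 reads in the yellow and 17 in the green library, a ratio of 5.84 (3.51 to 10.3). It was also listed for ahy-miR156a, which had 0 reads in the yellow and 1 in the green library. Gb_04158, matching At4g25270, known as OTP70 and needed for splicing of rpoC1 in Arabidopsis, was listed for novel_312, with 106 and 12 reads, a ratio of 6.59 (3.62 to 13.2). Both names were higher by the total, and the other scalings could only move their ratios further up. Gb_18745, matching At3g46790, known as CRR2, a factor for processing chloroplast ndhB transcripts, was listed for 3 names of miR156, the family that restrains SPL genes. ath-miR156a-5p had 203 reads in the yellow and 379 in the green library and was 2.50-fold lower (2.10 to 2.98), and stu-miR156f-5p had 69 and 125 and was 2.43-fold lower (1.80 to 3.31). Neither passed the 2-fold limit with TMM or median-of-ratios scaling. The remaining name, hci-miR156a, had 14 and 17 reads and was not called. Gb_03545 and Gb_08053, both matching At3g57430, the chloroplast editing factor OTP84, were listed for novel_164. Gb_22724, matching At4g31850, the chloroplast transcript factor PGR3, was listed for 3 names of miR396 that were not called, of which ptc-miR396g-5p had 6865 reads in the yellow and 5609 in the green library, with a ratio of 0.913 (0.882 to 0.946), or above 1 under the other scalings.

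PPR genes whose match stated mitochondria were few and mostly paired with rare miRNAs. Genes with no stated organelle may include further mitochondrial ones, such as those matching MEF22 below. Gb_22996, matching At2g03880, known as REME1, an editing factor of mitochondrial transcripts, was listed for novel_84, with 180 reads in the yellow and 344 in the green library, 2.56-fold lower (2.13 to 3.08). That call was lost with TMM and median-of-ratios scaling. Gb_21316, matching At3g13770, was listed for the lower novel_164. Of the 8 whose names had fewer than 20 reads, Gb_34884 (match At1g05670) was listed for hbr-miR396a, with 16 reads in the yellow and 3 in the green library. Gb_11966 (match At1g77360) was listed for novel_156, with 15 and 2 reads. Their ratios were 3.98 (1.14 to 21.3) and 5.60 (1.30 to 50.4), and both names were below the read minimum. Gb_05553 (match At4g01400) was listed for tae-miR395b, with 6 and 9 reads, and for ata-miR395b-3p, with 0 and 1.

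Of the 81 PPR genes with no stated organelle 22 had a called name. Of the 19 with a lower name, 13 were listed for novel_164, among them Gb_14458 (match At1g19720). Gb_00867, matching At4g02750, was listed for novel_58, with 913 reads in the yellow and 2160 in the green library (327 and 1036 CPM), 3.17-fold lower (2.93 to 3.43) and lower under all 4 scalings. Gb_18979, with the same match, was listed for 3 names of miR172, a family that represses AP2-like genes, of which ath-miR172a had 23 and 60 reads and was 3.50-fold lower (2.13 to 5.93). Gb_00757 and Gb_23263, both matching At5g46100, were listed for smo-miR171b, with 85 and 145 reads, which was 2.29-fold lower (1.74 to 3.02) when scaled by the total only. Gb_14966 (match At4g20770) was listed for rgl-miR5139, and Gb_30918 (match At2g27610) for ath-miR156a-5p, both named above.

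The 3 genes with a higher name had names of different abundance. Gb_16017, matching At3g12770, known as MEF22, a mitochondrial editing factor in Arabidopsis, was listed for novel_92, with 721 reads in the yellow and 151 in the green library (258 and 72.4 CPM), a ratio of 3.56 (2.99 to 4.27). Among higher names with a PPR target novel_92 had the most reads. Gb_13025, matching At4g02750, was listed for novel_59, with 167 and 59 reads, a ratio of 2.11 (1.56 to 2.89). Gb_35563, matching At2g35130, was listed for novel_330, with 61 and 2 reads, a ratio of 22.8 (6.04 to 192). The At4g02750 and At3g12770 matches, like At1g11290, occurred with both lower and higher miRNAs, and 2 further genes with the At3g12770 match, Gb_09416 and Gb_20268, were listed for the lower novel_164. Of the uncalled names, gma-miR396h was also listed for Gb_06975 (match At2g22070) here.

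A feature that the choice of genes did not use is the subclass held in the gene name of the match. Names beginning PCMP-H are those of the subclass with a DYW tail and names beginning PCMP-E of the subclass with an E tail, while most other names, such as DOT4, leave the subclass unstated. The name DYW7 of the match of Gb_14458 states the DYW subclass but is not among the PCMP-H names counted here. Of the 115 PPR genes 70, or 60.9%, had a PCMP-H match and 9 a PCMP-E match. The share of PCMP-H was 18 of 24 among chloroplastic, 2 of 10 among mitochondrial and 50 of 81 among PPR genes with no stated organelle. Of the 46 PPR genes listed for novel_164, novel_244, novel_332 or novel_259, 36 (78.3%) had a PCMP-H match, against 34 of the other 69 (49.3%). Among genes listed for numbered names it was 56 of 80, and among those listed for miRBase names 14 of 36. Genes of 1 miRNA name share a predicted site and many share a match, so these shares are descriptions without a test.

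Of the miRNA families known to cut PPR transcripts in flowering plants, only names of miR476 and miR158 were in the count table among the 7 families looked up. hbr-miR476, of a family described in poplar, had 1 read in the yellow and 0 in the green library, and was listed for 4 PPR genes among its 16 matched targets. bra-miR158-3p had 0 reads in the yellow and 3 in the green library and was listed for none of the 165 genes. The sulfate family name ata-miR395b-3p, with 0 and 1 read, was listed for 4 PPR genes, 3 of them matching At2g17140. mtr-miR156j, with 1 and 0 reads, was listed for 3. Counts this low do not show whether these miRNAs are present in either leaf kind.

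**Figure D4:**
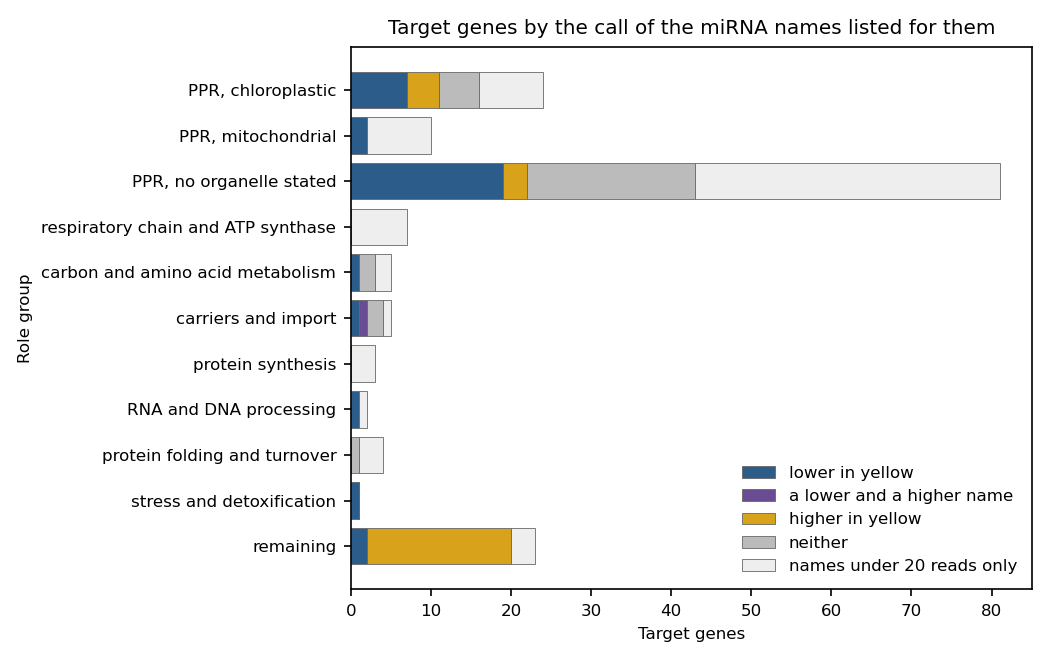
Bars show the number of genes in each role group, divided by the call of the miRNA names listed for them in yellow over green leaves. All 7 genes of the respiratory chain and ATP synthase have names under 20 reads only, and 18 of the 23 remaining genes have a higher name, 17 of them through novel_320.

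Among the 50 other mitochondrial genes, 17 had the match AtMg00820, an uncharacterised protein entry of the Arabidopsis mitochondrial genome, and all 17 were listed for novel_320 and no other name. novel_320 had 20 reads in the yellow and 0 in the green library. With a floor of 3 counts put in for the green library its ratio was 4.97, and the lower bound of its counting interval was 3.68. It stood exactly at the read minimum, and at a minimum of 100 reads its genes are not counted. Of its 72 predicted targets, 52 matched the Pol polyprotein of the retrotransposon TNT 1-94 and the other 3 had neither match. The TNT 1-94 match belonged to 104 target genes in all, and novel_320 was listed for 52 of them. The authors' E-values of the AtMg00820 matches ran up to 4.49e-07 with a median of 3.53e-17, against a median of 5.41e-50 for the other 33 mitochondrial genes. Those of the 115 PPR matches had a median of 5.44e-60 but ran up to 1.21e-06, so single PPR matches were also weak. The word mitochondrial in this entry names the genome that holds the Arabidopsis match, and says nothing of where the ginkgo genes lie.

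The genes of the respiratory chain and of ATP synthase were paired with rare miRNAs only. All 4 predicted targets of rgl-miR5141 matched the alpha subunit of mitochondrial ATP synthase, the catalytic complex that makes ATP, Gb_03832 among them, and the name had 2 reads in each library. Gb_30973, matching cytochrome c1 of complex III, was listed for novel_171, with 11 reads in the yellow and 8 in the green library. Gb_39653, matching an assembly factor of succinate dehydrogenase in rat, was listed for novel_280, with 13 and 1 reads, a ratio of 9.70 (1.46 to 412). Gb_04912, matching the alternative NAD(P)H dehydrogenase NDA2, was listed for mdm-miR156ad, with 1 and 0 reads. None of the 7 genes had a name with the 20 reads needed for a call.

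In the group of carriers and protein import, the gene matching TOM40 was paired with abundant miRNAs. Gb_29451, matching TOM40-1, the pore through which proteins enter mitochondria, was listed for 3 names of miR396 and for novel_28. vvi-miR396b had 101786 reads in the yellow and 61971 in the green library, a ratio of 1.23 (1.21 to 1.24). vvi-miR396a had 49996 and 22788, a ratio of 1.64 (1.61 to 1.66), which passed the limit with TMM and median-of-ratios scaling. ppe-miR396a had 5317 and 1825, with a ratio of 2.17 (2.06 to 2.29) and a higher call by the total. The other scalings could only move its ratio further up. novel_28 had 178 and 303 reads and was 2.28-fold lower (1.89 to 2.76) when scaled by the total only. This was the only gene of the 165 with both a lower and a higher name.

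Of the 4 other carrier and import genes, 1 had a lower name and none a higher one when scaled by the total. Gb_34698, matching the carnitine/acylcarnitine carrier-like protein BOU, an inner membrane carrier, was listed for the lower rgl-miR5139 and cpa-miR8155. Gb_12490, matching TIM22-3 of the inner membrane import machinery, was listed for novel_53, with 2277 reads in the yellow and 1751 in the green library, a ratio of 0.970 (0.911 to 1.03). Gb_01676, matching TIM44-2, which links import to the matrix motor, was listed for novel_244 only. Gb_28897, matching the thiamine pyrophosphate carrier of humans, was listed for novel_188, with 44 and 20 reads, a ratio of 1.64 (0.947 to 2.94), and it passed the limits for a higher call under TMM and median-of-ratios scaling.

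Of the 54 names with at least 20 reads, those with the lowest ratios were listed for a DNA repair gene. Gb_15283, matching uracil-DNA glycosylase, which removes uracil from DNA, was listed for pab-miR397 and ath-miR397a, names of a family known for laccases. pab-miR397 had 17 reads in the yellow and 437 in the green library and was 34.4-fold lower (21.3 to 59.7). ath-miR397a had 2 and 35 reads and was 23.5-fold lower (6.03 to 201). Both were lower under all 4 scalings. Gb_16554, matching MSH1, which guards the stability of organelle genomes in Arabidopsis, was listed for bdi-miR159a-5p, with 1 and 0 reads.

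Calcium uptake, redox and RNA modification also had genes with lower names. Gb_23238 and Gb_25546 matched the calcium uniporter proteins 6 and 4, channels for calcium into mitochondria. The first was listed for ath-miR156a-5p and stu-miR156f-5p, lower as given above, and for mdm-miR156ad. The second was listed for ppt-miR1030a, with 17 reads in the yellow and 48 in the green library and 3.78-fold lower (2.14 to 7.02), for novel_132, with 50 and 103 reads and 2.76-fold lower (1.95 to 3.95), a call lost with TMM scaling, and for ppt-miR1030h, with 6 and 12 reads. Gb_07857, matching the glutaredoxin GRXS15 of iron-sulfur cluster transfer, was listed for 5 names of miR319 and miR159. Of these, ppt-miR319a had 840 and 1452 reads and was 2.32-fold lower (2.13 to 2.52) when scaled by the total only, while mdm-miR159a had 5030 and 2890, a ratio of 1.30 (1.24 to 1.36). Gb_32565, matching an RNA pseudouridine synthase, was listed for novel_101, with 69 and 423 reads and 8.22-fold lower (6.36 to 10.8) by the total, and called lower under all 4 scalings.

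The remaining metabolic genes had rare names or names not called when scaled by the total. Gb_03208, matching the glycine dehydrogenase of photorespiration, was listed for novel_331, with 39 reads in the yellow and 18 in the green library, a ratio of 1.62 (0.903 to 3.003), and it passed the limits for a higher call under TMM and median-of-ratios scaling. Gb_39527, matching methylmalonate-semialdehyde dehydrogenase, was listed for pta-miR1314, with 1935 and 1704 reads, a ratio of 0.847 (0.794 to 0.905). Gb_16333, matching 2-oxoglutarate dehydrogenase of the citric acid cycle, had names with a total of 1 read each. Gb_32341, matching CNX2 of molybdenum cofactor synthesis, was listed for novel_337, with 1 and 11 reads. Gb_23042 and Gb_33908, both matching the neutral/alkaline invertase NIN1 of rice, were listed for ppe-miR399c, with 4 reads in the yellow and 0 in the green library.

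Protein folding and synthesis had no called name. Gb_01037, matching a small heat shock protein of pea mitochondria, was listed for novel_149, with 18 reads in the yellow and 26 in the green library, a ratio of 0.517 (0.267 to 0.979). Gb_34238 and Gb_34239, matching BCS1 chaperones of Dictyostelium, were listed for novel_244, and so was Gb_34381, matching mitochondrial ribosomal protein L5. Gb_27548, matching BCS1 of cattle, was listed for gma-miR1511, with 1 and 0 reads. Gb_39260, matching a mitochondrial ribosomal protein of yeast, was listed for osa-miR396c-3p, with 5 and 1 reads. Gb_33491, matching a glycine tRNA ligase, and Gb_08600, matching the rhomboid-like protein RBL14, were both listed for aly-miR165a-5p, with 0 and 1 read. Outside these groups, Gb_32585, matching SIN2, a protein of ovule development in Arabidopsis, was listed for novel_312, which was higher as given above.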

How the data were processed

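The values used were the deposited read counts of 467 miRNA names in 2 libraries, 1 per leaf type. Per the file headers these are raw counts, and Bowtie is named without a version in the submitters' processing notes. How reads were assigned to names, and the miRBase release, genome build and target prediction tool, were not given in the sources used here. Predictions deposited with them pair 414 names with 2713 genes, and 1 of these names had no count. Each count was divided by its column total, and ratios received exact Clopper-Pearson intervals (scipy 1.17.1, Python 3.11.15). A library with 0 reads was set to a floor of 3 counts, 1.07 CPM in the yellow and 1.44 CPM in the green library. With 1 library per leaf type edgeR and DESeq2 could give no test, so edgeR 4.0.16 TMM factors and DESeq2 1.42.0 median-of-ratios factors served only as other scalings, beside the total without the most abundant name. The other scalings multiplied each ratio by 1.38, 1.34 and 1.20, so no higher call could be lost under them. Lower calls could be lost only within 1.38-fold of a limit of the rule. Role groups were made by keyword, which put the pseudouridine synthase under metabolism. Named miRNAs were those with at least 3 of the 165 genes, the 5 most-read per library and the 6 highest and 6 lowest ratios. Named genes were those with at least 3 names, with names of 2 or more families or with a called name of at least 100 reads, and the 3 of each role group with the most-read names; further ones were chosen after their values were seen. Genes, groups and rules were chosen with earlier results of these data known. The calling rule was tried on simulated counts that held counting error only, so variation between libraries of 1 leaf type was not covered.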

Additional observations from a re-analysis of the deposited data

How the results depend on the processing

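No paired analysis was possible because each leaf type has 1 library. Against 17 lower and 9 higher names, TMM scaling gave 10 and 14 and median-of-ratios scaling 11 and 14, and a minimum of 100 reads gave 5 higher names. The median log2 ratio of the names, -0.29 by the total, changed sign to 0.18 with TMM and 0.14 with median of ratios. The median of all names with at least 20 reads moved alike, from -0.43 to 0.03 and -0.01. Against 7 PPR genes with a higher name, each of the 3 other scalings gave 11, and against 7 other mitochondrial genes with a lower name, TMM and median of ratios gave 4. With a minimum of 100 reads 15 genes had a lower and 6 a higher name, of them 8 and 4 PPR genes, and 2 other mitochondrial genes had a higher name. Shares over all names or target genes were not computed at that minimum, nor shares over all target genes for the other scalings. These counts therefore stand without a background. Without PPR genes of no stated organelle 16 genes had a lower name, 9 of them PPR genes, and 4 PPR genes a higher name. Chosen after seeing the data were leaving out novel_164, with 16 genes and 9 PPR genes left with a lower name, and leaving out the AtMg00820 matches, with 9 genes and 2 other mitochondrial genes left with a higher name. Of 107 recomputed values 84 stayed within 1.5 times the reported count or, for the median, within 0.45, the median half-width of the names' intervals. This yardstick was chosen after the counts were seen, and the median stayed within it with median of ratios although its sign changed. Some of the 84 could not change by construction, such as the PPR counts when genes of both organelles were added. Among the 25 named miRNAs with reads in both libraries, the ratios of novel_244, novel_297, ptc-miR396g-5p and rgl-miR5141 passed 1 under another scaling, and none of them was called. At 100 reads fewer names entered, and each scaling moved every ratio by a common factor. Depth limits the 39 names under 20 reads.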
